A study of Mus musculus with 12 samples.

Results

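The genes described are the 8 that carry mouse proinsulin and amylin to their active forms. Ins1 and Ins2 encode the insulin precursors and Iapp encodes the precursor of amylin. Pcsk1 and Pcsk2 encode the prohormone convertases PC1/3 and PC2, and Cpe encodes carboxypeptidase E. Pcsk1n encodes proSAAS, an inhibitor of PC1/3, and Scg5 encodes 7B2, the chaperone of PC2. They were chosen by symbol through the Ensembl gene IDs, 8 of 54532 IDs listed per library, and all 8 passed the filter on low counts that left 16076 genes to test.

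A beta cell makes preproinsulin, removes its signal peptide in the endoplasmic reticulum, and stores proinsulin in secretory granules. There the convertases cut after pairs of basic residues, PC1/3 mainly at the junction of the B chain with the C peptide and PC2 mainly at the junction of the C peptide with the A chain. Carboxypeptidase E then trims the basic residues left behind. Amylin is made from its own precursor by the same enzymes and is released together with insulin. Mice have a pair of non-allelic insulin genes. Ins1 arose from Ins2 by retroposition, and both are active in beta cells, while PC2, carboxypeptidase E, proSAAS and 7B2 are also made in other endocrine cells of the islet.

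RNA was sequenced from islets of male C57BL/6 mice labelled as 40 weeks old, in 12 libraries that form 4 groups of 3. The groups are Sirt3 knockout mice on a standard diet (STD KO), wild type mice on that diet (STD WT), knockout mice on a high fat diet (HFD KO) and wild type mice on the high fat diet (HFD WT). The knockout is labelled as selective for beta cells, and Sirt3 encodes a mitochondrial deacetylase. Neither the Cre driver nor the deleted exons is given in the labels. The standard diet held 6.2% fat. The high fat diet gave 60% of calories as fat for 36 weeks, after standard food for 6, 5 and 6 weeks in HFD KO 1 to 3 and for 4 weeks in HFD WT mice. The weeks therefore add to 41 or 42 in HFD KO and to 40 in HFD WT mice, and within the high fat diet genotype and this earlier period cannot be told apart. The labels give different weeks to HFD KO libraries but otherwise do not state separate animals within a group, so p-values measure spread among these libraries, which may be partly technical.

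The coding sequences of the 3 precursors are shown because they carry the convertase sites and because the likeness of Ins1 and Ins2 limits how their reads can be told apart. They come from the GENCODE M21 transcripts of the GRCm38 (mm10) genome, and capitals mark codons of adjacent basic residues. The insulin sequences run from the first codon of the B chain (codon 25) to the last of the A chain, and the Iapp sequence runs over codons 1 to 93, without the stop codon.
Ins1: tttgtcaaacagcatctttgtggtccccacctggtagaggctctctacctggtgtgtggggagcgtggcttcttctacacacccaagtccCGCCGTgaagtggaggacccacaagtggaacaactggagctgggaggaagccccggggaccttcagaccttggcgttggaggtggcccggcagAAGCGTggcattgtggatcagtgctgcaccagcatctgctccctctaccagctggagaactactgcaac
Ins2: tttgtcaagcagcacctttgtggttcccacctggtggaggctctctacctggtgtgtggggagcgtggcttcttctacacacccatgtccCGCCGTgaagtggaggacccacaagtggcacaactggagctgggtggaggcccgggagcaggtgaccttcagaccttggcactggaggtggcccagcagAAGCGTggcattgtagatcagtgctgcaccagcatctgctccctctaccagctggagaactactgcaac
Iapp: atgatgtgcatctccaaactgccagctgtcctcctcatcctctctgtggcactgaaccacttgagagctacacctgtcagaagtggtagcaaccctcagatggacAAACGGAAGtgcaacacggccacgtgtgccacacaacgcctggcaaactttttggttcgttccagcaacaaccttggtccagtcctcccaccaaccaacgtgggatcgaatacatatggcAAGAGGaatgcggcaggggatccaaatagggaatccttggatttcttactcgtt
The Ins1 and Ins2 stretches each hold 2 such codon pairs, which flank the C peptide, while Iapp holds 3, 2 of them overlapping. Over their whole coding sequences Ins1 and Ins2 were identical in 302 of 333 aligned columns (90.7%), with 25 mismatches and 6 gap columns, and the longest run shared by their transcripts was 56 bases. How reads that match both genes were counted is not given in the sources used here, so each gene's own value is less certain than their sum. Ins1 lies on chromosome 19 (chr19:52264297-52265476, plus strand) and Ins2 on chromosome 7 (chr7:142678656-142743381, minus strand). Iapp lies on chromosome 6 (chr6:142298423-142303961, plus strand), and all coordinates are of mm10.

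Total counts per library lay between 16037709 and 20864920. The 8 genes together took 21.9% to 36.7% of all counts, and Ins1 with Ins2 took 19.7% to 33.5%. Levels are given as CPM, counts scaled by library total, after TMM scaling, which sets libraries to a common composition. Sirt3 stood at 6.59, 5.97 and 5.86 CPM in STD KO libraries, against 9.04, 11.3 and 11.5 CPM in STD WT libraries. It stood at 7.85, 11.5 and 6.21 CPM in HFD KO libraries, against 11.4, 9.30 and 11.8 CPM in HFD WT libraries, so the library labelled HFD KO 2 lay inside the wild type range. By edgeR's quasi-likelihood test Sirt3 did not pass between genotypes. Its log2 fold change was -0.79 (adjusted p = 0.156) under the standard diet and -0.35 (adjusted p = 0.363) under the high fat diet. Over the mean of both diets it was -0.57 (adjusted p = 0.0503). Tph1, chosen after its values were seen, stood at 382 to 1149 CPM in the 6 KO libraries. It stood at 43.5 CPM in the library labelled STD WT 3 and at 0.70 to 1.33 CPM in the other 5 WT libraries. Results that rest on these libraries are given without them where the call changes. Beta cell markers other than these 8 genes (7 genes) summed to 4497 to 5602 CPM in STD KO, 3523 to 6407 in STD WT, 4749 to 5689 in HFD KO and 3759 to 6532 in HFD WT libraries. Alpha cell markers (7 genes) summed to 17934 to 26256 CPM in STD KO, 27954 to 35450 in STD WT, 13302 to 35664 in HFD KO and 19948 to 23856 in HFD WT libraries. Acinar markers (8 genes) summed to 6708 to 18660 CPM in STD KO, 4577 to 20414 in STD WT, 12344 to 16998 in HFD KO and 16564 to 26749 in HFD WT libraries. No marker was at 0 in a whole group. G6pc2 was the largest part of the beta cell sum, at a mean of 3326 CPM in HFD KO and 1871 CPM in HFD WT libraries. In that contrast 6 of the 7 beta cell markers had negative log2 fold changes (median -0.77). Under the standard diet 4 of the 7 did (median -0.09). Gcg made up most of the alpha cell sum, at a mean of 28737 CPM in STD WT libraries.

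Knockout islets held more Ins1 relative to Ins2 under either diet, without a change in either gene alone that passed the test. Ins2 stood at 141759, 193929 and 115566 CPM in STD KO libraries, against 172322, 236668 and 256822 CPM in STD WT libraries. In HFD KO libraries it stood at 207699, 199388 and 150443 CPM, against 284392, 193519 and 215308 CPM in HFD WT libraries. The groups overlapped under both diets, with log2 fold changes of -0.56 (SE 0.30, adjusted p = 0.722) and -0.31 (SE 0.30, adjusted p = 0.555) by edgeR's quasi-likelihood test. Ins1 stood at 65214, 94220 and 57077 CPM in STD KO libraries, against 60532, 77074 and 86485 CPM in STD WT libraries. It stood at 124853, 131693 and 76930 CPM in HFD KO libraries, against 90450, 63557 and 69074 CPM in HFD WT libraries. HFD KO 1 and 2 were thus above every other library, and HFD KO 3 lay within the range of the wild type. On the standard diet the Ins1 log2 fold change was -0.05 (SE 0.30, adjusted p = 0.999), and on the high fat diet it was 0.58 (SE 0.30, adjusted p = 0.265). The summed level of both genes averaged 222582 ± 59328 CPM in STD KO and 296642 ± 57186 CPM in STD WT libraries (SD, n = 3 each). It averaged 297005 ± 60310 CPM in HFD KO and 305437 ± 61648 CPM in HFD WT libraries (SD, n = 3 each). With the genes added into 1 row, the log2 fold changes were -0.41 (SE 0.31, adjusted p = 0.925) and -0.04 (SE 0.31, adjusted p = 0.957). In bulk islet RNA, fewer beta cells and less RNA per cell cannot be told apart.

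The split between the insulin genes was tighter than either level. Ins1 made up 31.5%, 32.7% and 33.1% of insulin counts in STD KO libraries, against 26.0%, 24.6% and 25.2% in STD WT libraries. It made up 37.5%, 39.8% and 33.8% in HFD KO libraries, against 24.1%, 24.7% and 24.3% in HFD WT libraries. Every KO library lay above every WT library. Per length, as a ratio of FPKM (counts scaled by gene length and library total), Ins1 stood at 0.236 ± 0.0087 of Ins2 in STD KO and 0.166 ± 0.0063 in STD WT libraries (SD, n = 3 each). The ratio was 0.290 ± 0.037 in HFD KO and 0.158 ± 0.0026 in HFD WT libraries (SD, n = 3 each). The log2 ratio differed by 0.51 (SE 0.04) under the standard and by 0.87 (SE 0.11) under the high fat diet, where 3 libraries against 3 cannot give an exact p under 0.10. Over both diets it was 0.69 higher, or 1.61-fold, in KO islets (exact two-sided permutation test within diets, p = 0.005, the smallest that its 400 arrangements can give; adjusted p = 0.02 over 16 tests of 8 ratios). The level of this ratio rests on the gene lengths used for FPKM, 1016 bases for Ins1 and 499 for Ins2, which cancel in the difference between groups. All exons of these genes in GENCODE M21 cover 1062 and 1312 bases. The levels of the other ratios rest on such lengths too. For Pcsk1 the length used was 2308 bases against 5604 in GENCODE M21, and for Pcsk1n it was 2193 in both. Without HFD KO 2 the difference was 0.64 (adjusted p = 0.02). With libraries of the same number as a replicate block, an exact sign-flip permutation test of the 6 pairs, which cannot go below p = 0.0312, gave an adjusted p of 0.125 for this and for the other 3 ratios that passed.

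**Figure D1:**
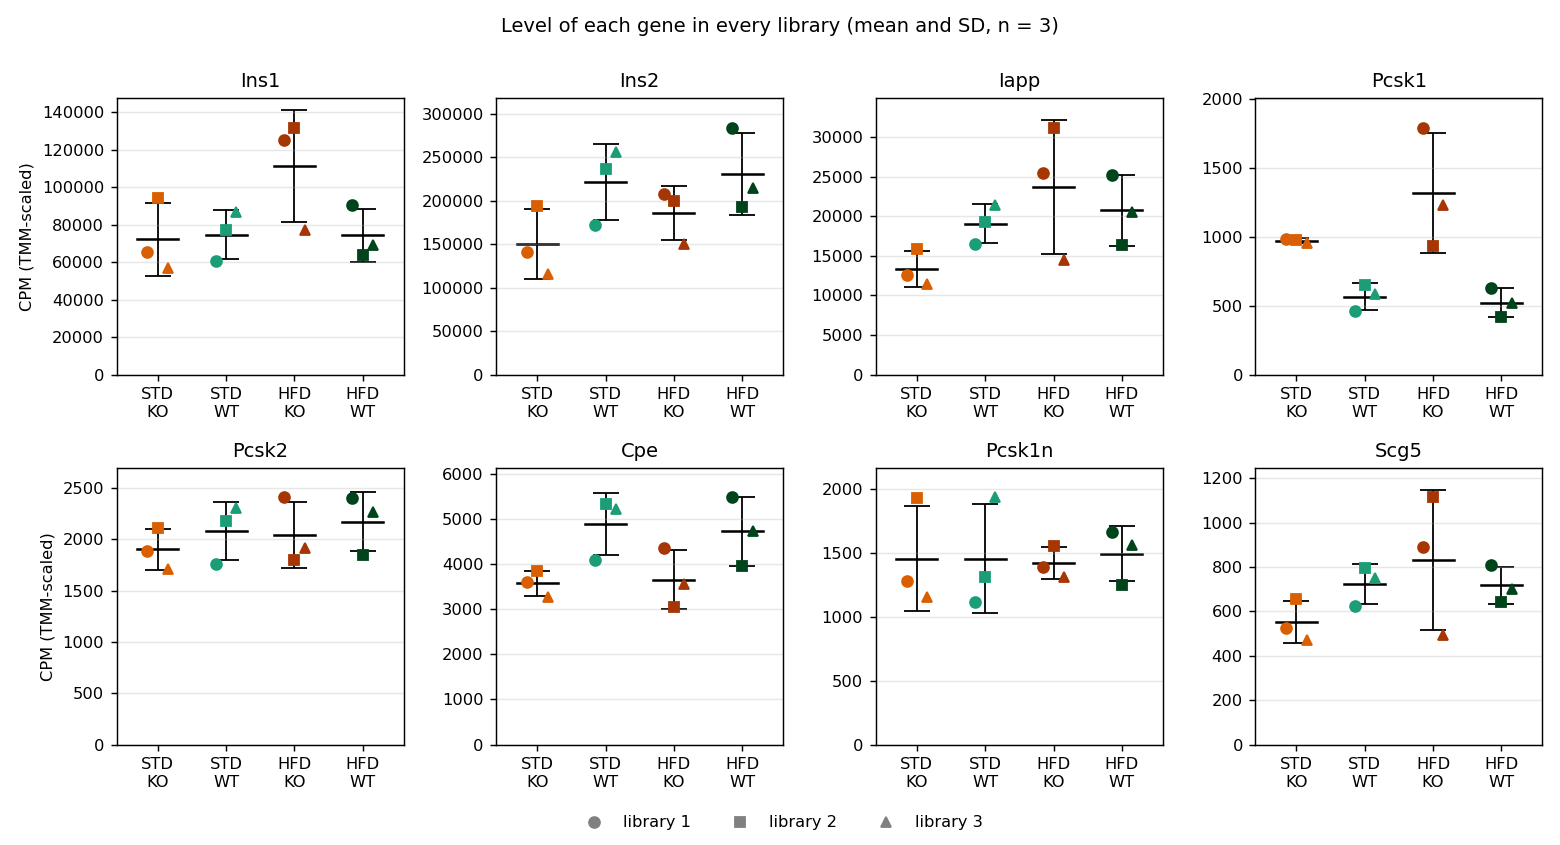
Level of each of the 8 genes in every library, in TMM-scaled CPM on a linear axis from 0. Symbols mark libraries 1 to 3 of each group, the long bar the mean and the short bars the SD (n = 3). Pcsk1 is the gene whose KO libraries lie above the WT libraries under both diets.

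Iapp did not pass in any contrast, and its level spread widely within the HFD KO group. It stood at 12592, 15835 and 11460 CPM in STD KO libraries, against 16494, 19267 and 21419 CPM in STD WT libraries. These groups did not overlap, with a log2 fold change of -0.52 (SE 0.30, adjusted p = 0.796). In HFD KO libraries Iapp stood at 25441, 31174 and 14468 CPM, against 25244, 16340 and 20583 CPM in HFD WT libraries. The HFD KO libraries spanned the whole range of the HFD WT libraries, with a log2 fold change of 0.19 (SE 0.30, adjusted p = 0.741), or -0.06 without HFD KO 2. Per length, Iapp was 6.40% ± 0.611 of the summed insulin genes in STD KO and 6.55% ± 0.55 in STD WT libraries (SD, n = 3 each). It was 8.49% ± 1.82 in HFD KO and 6.81% ± 0.437 in HFD WT libraries (SD, n = 3 each). The log2 ratio differed by 0.13 between genotypes over both diets (exact permutation test, adjusted p = 0.496).

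Of the enzymes, Pcsk1 was higher in knockout islets under the high fat diet and over the mean of both diets, while Pcsk2 passed in no contrast. Pcsk1 lies at chr13:75089826-75134861 (plus strand) and Pcsk2 at chr2:143546156-143816285 (plus strand). Pcsk1 stood at 986, 977 and 956 CPM in STD KO libraries, against 462, 650 and 587 CPM in STD WT libraries. The groups did not overlap and the STD KO libraries differed little among themselves, but the log2 fold change of 0.78 (SE 0.24, 1.72-fold) did not pass (edgeR adjusted p = 0.222). It passed by DESeq2 (0.77, adjusted p = 0.0352) and with the compared groups fitted alone (0.80, adjusted p = 0.0437). In HFD KO libraries Pcsk1 stood at 1792, 932 and 1233 CPM, against 629, 418 and 517 CPM in HFD WT libraries. All HFD KO libraries were above all HFD WT libraries, with HFD KO 1 the highest of the 12, and the log2 fold change of 1.34 (SE 0.25, 2.53-fold) passed (edgeR adjusted p = 0.00717). Leaving out 1 library at a time gave 1.05 to 1.54 with adjusted p-values up to 0.0421, and the value was 1.54 without HFD KO 2. With the compared groups fitted alone, the call was lost (1.30, adjusted p = 0.0593). In that fit with the replicate number as a block, a pairing taken from these data and not from the labels, Pcsk1 was called (1.27, adjusted p = 0.00967). Over the mean of both diets the log2 fold change was 1.06 (SE 0.17, 2.08-fold, edgeR adjusted p = 0.00255), and the difference of the genotype effects between the diets, 0.56 (SE 0.34), had an adjusted p of 0.641.

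Pcsk2 stood at 1890, 2111 and 1713 CPM in STD KO libraries, against 1758, 2182 and 2301 CPM in STD WT libraries. In HFD KO libraries it stood at 2408, 1803 and 1916 CPM, against 2403, 1850 and 2264 CPM in HFD WT libraries. The groups overlapped under both diets, and the log2 fold changes were -0.13 (SE 0.19, adjusted p = 0.999) and -0.09 (SE 0.19, adjusted p = 0.819). PC1/3 and PC2 act in sequence on proinsulin, so their transcripts were also set against each other. Per length, the Pcsk1:Pcsk2 ratio was 0.950, 0.843 and 1.02 in STD KO libraries, against 0.479, 0.542 and 0.465 in STD WT libraries. It was 1.36, 0.942 and 1.17 in HFD KO libraries, against 0.477, 0.412 and 0.416 in HFD WT libraries. No KO library came as low as the highest WT library. The ratio was 2.23-fold higher in KO islets over both diets (log2 difference 1.16, exact permutation p = 0.005, adjusted p = 0.02), and 1.10 to 1.23 when 1 library was left out. Relative to the summed insulin genes, Pcsk1 stood at 0.118% ± 0.0283 in STD KO and 0.0477% ± 0.00465 in STD WT libraries (SD, n = 3 each). It stood at 0.121% ± 0.0384 in HFD KO and 0.0421% ± 0.00242 in HFD WT libraries (SD, n = 3 each). This difference was 1.37 on the log2 scale (2.59-fold, exact permutation p = 0.005, adjusted p = 0.02). Without HFD WT 2 it was similar, 1.36, but lost its call (adjusted p = 0.0533). The Pcsk2:(Ins1+Ins2) ratio differed by 0.21 (exact permutation p = 0.11, adjusted p = 0.263), or by 0.50 (adjusted p = 0.016) when values were corrected for gene length.

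**Figure D2:**
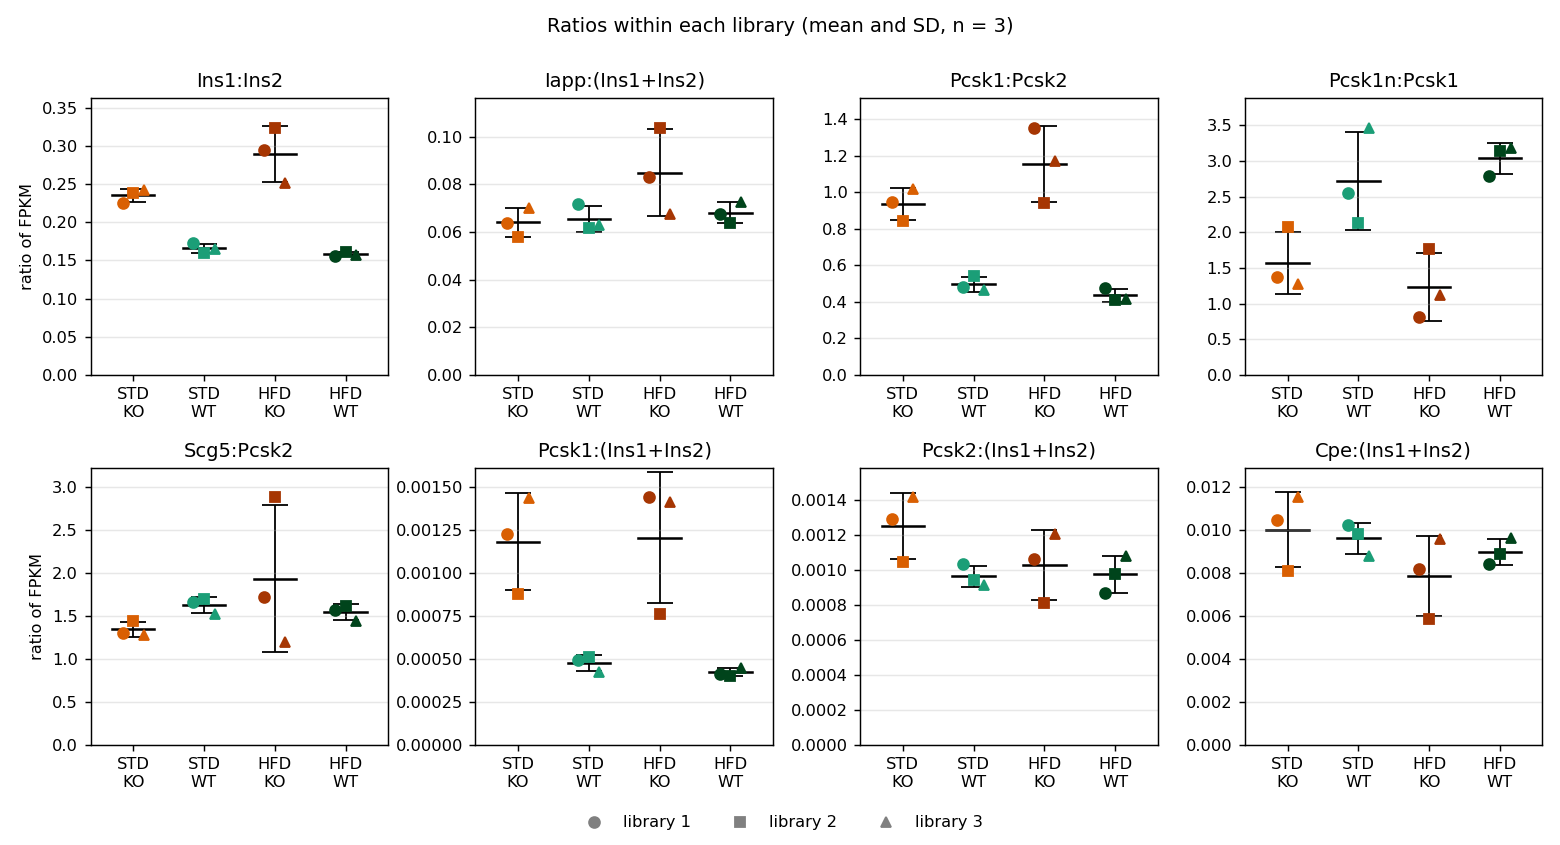
Ratios of FPKM within each library, on linear axes from 0, with libraries 1 to 3 as symbols, the mean as a long bar and the SD as short bars (n = 3). KO and WT libraries do not overlap in the Ins1:Ins2, Pcsk1:Pcsk2, Pcsk1n:Pcsk1 and Pcsk1:(Ins1+Ins2) ratios under either diet.

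Cpe, whose product trims the cut ends, stood lower in KO islets without passing the test. The gene lies at chr8:64592542-64693054 (minus strand). It stood at 3590, 3842 and 3270 CPM in STD KO libraries, against 4084, 5331 and 5209 CPM in STD WT libraries, with no overlap. It stood at 4343, 3054 and 3562 CPM in HFD KO libraries, against 5472, 3945 and 4739 CPM in HFD WT libraries, where only HFD KO 1 reached into the WT range. The standard diet gave a log2 fold change of -0.45 (SE 0.21, adjusted p = 0.586), the high fat diet one of -0.37 (SE 0.21, adjusted p = 0.299) and the mean of both -0.41 (SE 0.15, edgeR adjusted p = 0.128). DESeq2 called the last of these (-0.40, adjusted p = 0.0158). Per length, Cpe was 1.05%, 0.81% and 1.15% of the summed insulin genes in STD KO libraries, against 1.02%, 0.983% and 0.881% in STD WT libraries. It was 0.787% ± 0.188 in HFD KO and 0.898% ± 0.0605 in HFD WT libraries (SD, n = 3 each). Set against insulin, the genotypes differed by -0.09 on the log2 scale (exact permutation test, adjusted p = 0.714).

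Neither partner of the convertases passed between genotypes. Pcsk1n, which encodes the inhibitor, lies at chrX:7919822-7924410 (plus strand), and it stood at 1282, 1926 and 1157 CPM in STD KO libraries, against 1119, 1313 and 1935 CPM in STD WT libraries. In HFD KO libraries it stood at 1391, 1558 and 1315 CPM, against 1666, 1250 and 1565 CPM in HFD WT libraries. The groups overlapped throughout, and the log2 fold changes were 0.00 (SE 0.25, adjusted p = 1) and -0.07 (SE 0.25, adjusted p = 0.898). Per length, the inhibitor stood at 1.57 ± 0.438 times Pcsk1 in STD KO and 2.71 ± 0.686 times in STD WT libraries (SD, n = 3 each). It stood at 1.23 ± 0.481 times in HFD KO and 3.04 ± 0.219 times in HFD WT libraries (SD, n = 3 each). The Pcsk1n:Pcsk1 ratio was lower in KO islets by a log2 difference of -1.08 over both diets (exact permutation p = 0.005, adjusted p = 0.02). That call was lost without HFD WT 2 (-1.07) or without HFD WT 3 (-1.06, adjusted p = 0.06 each), although the difference stayed close to its value over all libraries.

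Scg5 lies at chr2:113776362-113829121 (minus strand) and stood at 527, 655 and 470 CPM in STD KO libraries, against 625, 797 and 751 CPM in STD WT libraries. It stood at 891, 1114 and 494 CPM in HFD KO libraries, against 808, 643 and 701 CPM in HFD WT libraries. HFD KO 3 was the lowest and HFD KO 2 the highest of these 6, and the log2 fold changes were -0.40 (SE 0.26, adjusted p = 0.864) and 0.22 (SE 0.26, adjusted p = 0.663). Per length, Scg5 stood at 1.34 ± 0.0908 times Pcsk2 in STD KO and 1.63 ± 0.0939 times in STD WT libraries, without overlap (SD, n = 3 each; exact permutation p = 0.10, the smallest possible). Under the high fat diet the ratio was 1.94 ± 0.86 in HFD KO and 1.54 ± 0.0912 in HFD WT libraries (SD, n = 3 each), and over both diets it differed by -0.02 on the log2 scale (exact permutation test, adjusted p = 0.955).

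Counted over the 8 genes, 0 passed between genotypes under the standard diet, where 1.71% of all tested genes passed; 1 had an unadjusted p under 0.05, Pcsk1, which DESeq2 called. Under the high fat diet 1 of 8 passed, Pcsk1, by edgeR and by DESeq2, where 7.4% of all tested genes passed, and over the mean of both diets 1 passed, where 7.77% did. Under the standard diet 3 of 8 genes had groups that did not overlap (Pcsk1 higher, Iapp and Cpe lower), against 14.8% of all tested genes. Under the high fat diet 1 of 8 did (Pcsk1), against 24.5%. The median log2 fold change of the 8 genes was -0.26 under the standard diet, beside -0.02 for all tested genes, and 0.06 under the high fat diet, beside 0.00 for all tested genes. Fold changes under the high fat diet fell with gene length across genes (rho = -0.31, a description across genes), and among the libraries this trend was steepest in HFD KO 2 (rho = -0.47). With offsets corrected for length, Pcsk1 kept its call under the high fat diet (1.45, adjusted p = 0.003).

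**Figure D3:**
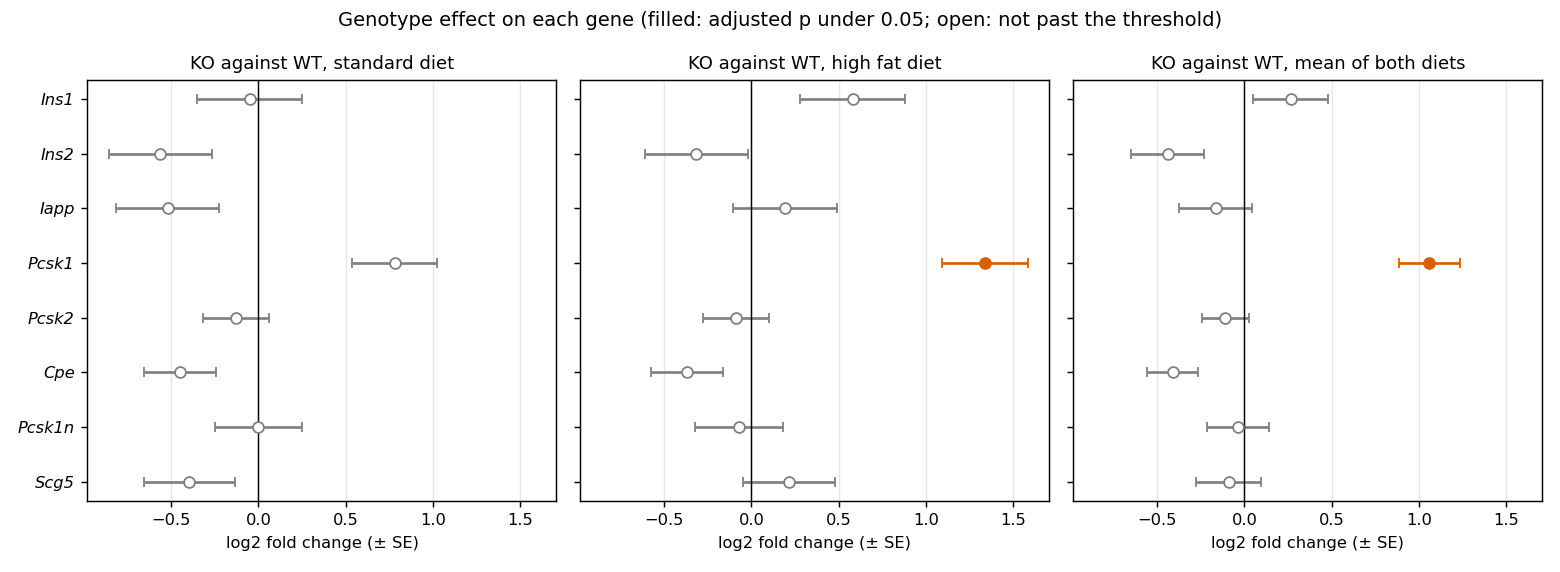
Log2 fold change of each gene between KO and WT islets under the standard diet, under the high fat diet and over their mean, with SE bars from edgeR's fit of all 12 libraries. Filled points had an adjusted p under 0.05, which Pcsk1 alone reached, at 1.34 under the high fat diet and 1.06 over the mean.

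The diet contrasts held no call among the 8 genes. Between HFD WT and STD WT libraries the log2 fold changes lay between -0.12 and 0.12, all with an adjusted p of 1, and 0 of 8 had an unadjusted p under 0.05 or a call by DESeq2. edgeR called 0% of all tested genes in this contrast, 762 of which had an unadjusted p under 0.05, and DESeq2 called 43. Between HFD KO and STD KO libraries 7 of the 8 fold changes were positive, but 0 of 8 passed, where 0.0435% of all tested genes passed. Iapp had the largest, 0.83 (SE 0.30, adjusted p = 0.349), followed by Ins1 at 0.62 (SE 0.30, adjusted p = 0.422), Scg5 at 0.60 (SE 0.26, adjusted p = 0.387) and Pcsk1 at 0.44 (SE 0.24, adjusted p = 0.474). Fold changes in this contrast also fell with gene length across genes (rho = -0.34). With length-corrected offsets and the replicate block, the values were 0.48 for Iapp, 0.47 for Ins1, 0.36 for Scg5 and 0.49 for Pcsk1. Iapp and Scg5 had an unadjusted p under 0.05, and DESeq2 called 0 of the 8. Without HFD KO 3, Iapp (1.11, adjusted p = 0.0468) and Scg5 (0.89, adjusted p = 0.0432) passed. In that fit 801 of all tested genes passed, against 7 in the fit of all 12 libraries. Iapp and Scg5 varied together across libraries (r = 0.96), and whether the gain was particular to them was not tested. HFD KO 3 was also the library with the lowest alpha cell sum, 13302 CPM, and HFD KO 2 had the highest, 35664 CPM. By library, the trend with gene length had a rho of 0.17 in HFD KO 3, -0.25 in HFD KO 1 and -0.47 in HFD KO 2. The parts of cell makeup and of gene length in these values were not tested.

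Tested directly, the interaction of genotype and diet passed for 0 of the 8 genes and for 0% of all tested genes, with 0 and 1271 at an unadjusted p under 0.05 and 0 and 31 called by DESeq2. The estimates were 0.71 for Iapp (SE 0.42, adjusted p = 0.636), 0.63 for Ins1 (SE 0.43, adjusted p = 0.658) and 0.61 for Scg5 (SE 0.37, adjusted p = 0.641), and the others were 0.56 or lower. With length-corrected offsets and the replicate block, Iapp was 0.36, Ins1 0.47 and Scg5 0.35, while Pcsk1 was 0.66. Among the ratios, Ins1:Ins2 was 0.29 higher on the log2 scale in HFD KO than in STD KO libraries, without overlap (exact permutation p = 0.10, the smallest possible), and -0.07 in HFD WT against STD WT libraries. The difference between these values was not tested. Over both genotypes, none of the 8 ratios passed between the diets (exact permutation tests, adjusted p from 0.256 to 0.741).

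Further genes of prohormone production were read from 4 lists. Among all tested genes, 1.34% rose and 0.367% fell under the standard diet, and 3.9% rose and 3.5% fell under the high fat diet. Of 13 other convertases and peptide-modifying enzymes, 0 passed between genotypes under the standard diet (median 0.0049) and 2 fell and 0 rose under the high fat diet (median -0.14). The carboxypeptidase Cpm changed by -1.63 (SE 0.29, edgeR adjusted p = 0.006) and the convertase Pcsk6 by -1.13 (SE 0.28, adjusted p = 0.0307). Pcsk6 was no longer called when any of 4 of the 12 libraries was left out, with an adjusted p of 0.146 without HFD KO 1 and a fold change of -0.97 (adjusted p = 0.109) without HFD KO 2.

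Of 17 genes for the translocation and folding of proinsulin, 0 passed under the standard diet (median 0.09) and 3 rose and 0 fell under the high fat diet (median 0.49, beside 0.00 for all tested genes). The signal peptidase subunit genes Sec11c and Spcs1 rose by 1.30 (SE 0.27, adjusted p = 0.0136) and 0.94 (SE 0.24, adjusted p = 0.0389), and the disulphide isomerase P4hb by 0.74 (SE 0.20, adjusted p = 0.0465). Leaving out 1 of the 12 libraries ended the Sec11c call in 2 cases, the Spcs1 call in 9 and the P4hb call in 10, with adjusted p-values up to 0.20. Without HFD KO 2, Spcs1 (0.79, adjusted p = 0.128) and P4hb (0.75, adjusted p = 0.0916) were not called, nor were they without STD WT 3 (adjusted p = 0.0558 and 0.0655). Sec11c lost its call without both of these libraries (1.04, adjusted p = 0.052). P4hb was not called when same-numbered HFD libraries formed a replicate block (0.69, adjusted p = 0.0567). With length-corrected offsets and the replicate block over all 12 libraries, edgeR gave smaller rises. They were 1.02 for Sec11c (adjusted p = 0.00886), 0.68 for Spcs1 (adjusted p = 0.0372) and 0.65 for P4hb (adjusted p = 0.055). The oxidoreductase Ero1b, which forms disulphides of proinsulin, stood at 1125 ± 77.6 CPM in STD KO and 1631 ± 95.8 CPM in STD WT libraries (SD, n = 3 each). It stood at 1148 ± 266 CPM in HFD KO and 1915 ± 493 CPM in HFD WT libraries (SD, n = 3 each), and fell over the mean of both diets (-0.64, SE 0.16, adjusted p = 0.03). Ero1b was called in only 3 of the 12 fits that left out a library, with the highest adjusted p, 0.0819, without STD KO 1. Its values were -0.56 (adjusted p = 0.0507) without HFD KO 2 and -0.64 (adjusted p = 0.0598) without STD WT 3.

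Of 12 genes for insulin transcription and mRNA, 0 passed under the standard diet (median -0.13), and 2 fell and 0 rose under the high fat diet, where all 12 had negative fold changes (median -0.34). The pioneer factor gene Foxa2 averaged 58.4 ± 5.05 CPM in HFD KO and 102 ± 12.3 CPM in HFD WT libraries (SD, n = 3 each; -0.81, SE 0.16, edgeR adjusted p = 0.0106). The zinc finger factor gene Insm1 averaged 131 ± 23.1 CPM in HFD KO and 234 ± 27.8 CPM in HFD WT libraries (SD, n = 3 each; -0.84, SE 0.17, edgeR adjusted p = 0.011). Foxa2 was not called without HFD WT 3 (adjusted p = 0.0525), and Insm1 was not called in 2 cases, with an adjusted p of 0.066 without HFD KO 1. Over the mean of both diets Rfx6 also fell (-0.49, edgeR adjusted p = 0.0367), a call lost in 8 of the 12 fits without 1 library. Of 7 beta cell markers, 2 fell and 0 rose in the same contrast, and 6 of the 7 had negative fold changes (median -0.77).

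Of 19 other precursors of regulated granules 16 could be tested, and here the lists held the largest changes. Under the standard diet 2 rose and 1 fell (median -0.05). The granin Chgb averaged 5455 ± 630 CPM in STD KO and 1901 ± 523 CPM in STD WT libraries (SD, n = 3 each; 1.52, SE 0.25, edgeR adjusted p = 0.00868). Neuropeptide Y (Npy) rose by 2.17 (SE 0.40, adjusted p = 0.0167) at a low level. It averaged 14.9 ± 5.28 CPM in STD KO and 3.32 ± 1.13 CPM in STD WT libraries (SD, n = 3 each). Prodynorphin (Pdyn) fell by 1.85 on the log2 scale (SE 0.31, adjusted p = 0.0101). Leaving out a library ended the Chgb call in 1 case, the Npy call in 4 and the Pdyn call in 2, with an adjusted p of 0.077 for Npy without STD KO 2. Under the high fat diet 4 rose and 1 fell (median 0.23). Chgb averaged 6866 ± 1349 CPM in HFD KO and 1534 ± 253 CPM in HFD WT libraries (SD, n = 3 each; 2.16, SE 0.26, edgeR adjusted p = 0.000556). Proenkephalin (Penk) rose by 3.25 (SE 0.47, adjusted p = 0.00189) at a low level, with 13.4 ± 2.09 CPM in HFD KO and 1.42 ± 1.11 CPM in HFD WT libraries (SD, n = 3 each). Nucleobindin 2 (Nucb2) rose by 1.19 (SE 0.19, adjusted p = 0.00309), and urocortin 3 (Ucn3), which is also a beta cell marker, fell by 1.13 on the log2 scale (SE 0.19, adjusted p = 0.00459). Between HFD KO and STD KO libraries Pdyn rose by 2.38 (edgeR adjusted p = 0.032), a call lost in 9 of the 12 fits without 1 library. Pdyn averaged 166 ± 59.0 CPM in HFD KO and 31.9 ± 2.42 in STD KO libraries, beside 243 ± 47.5 in HFD WT and 115 ± 42.1 in STD WT libraries (SD, n = 3 each).

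**Figure D4:**
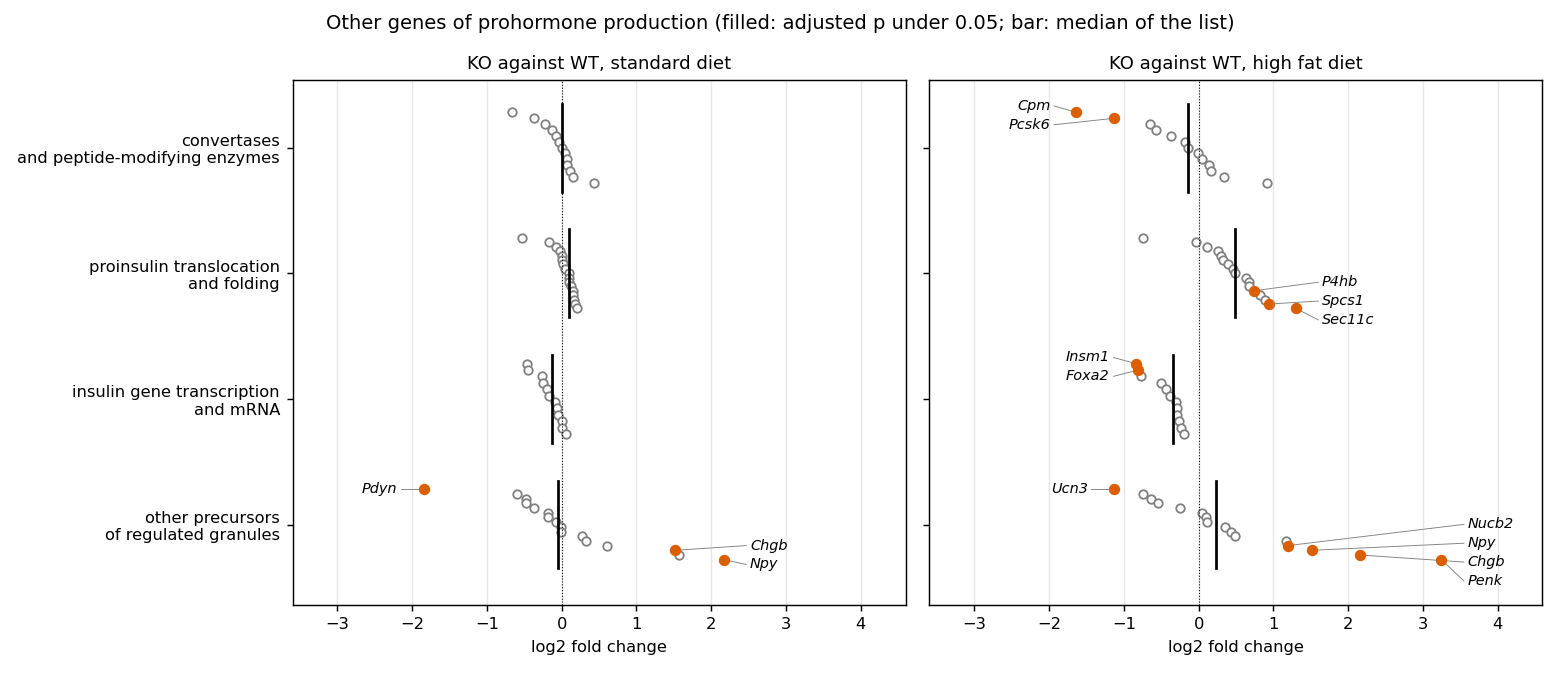
Log2 fold change between KO and WT islets of every tested gene in 4 lists of prohormone production, under the standard diet (left) and the high fat diet (right). Filled points had an adjusted p under 0.05, and the vertical bar marks each list's median, from -0.34 (transcription) to 0.49 (translocation and folding) under the high fat diet.

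Across the 12 libraries the 8 genes did not vary as 1 block. As Pearson's r of log2 CPM, given as a description because libraries share composition, length trends and group differences, Iapp and Scg5 were closest (r = 0.96). Ins1 was closest to Scg5 (r = 0.81) and Iapp (0.80). Ins2 gave similar values with Cpe (0.80), Pcsk2 (0.78), Iapp (0.78) and Scg5 (0.74), and Ins1 with Ins2 gave 0.49. Pcsk1 stood apart, with r of -0.34 to Ins2, -0.40 to Cpe and 0.52 to Ins1. Among 9247 genes with a mean of at least 10 CPM, the gene most like Pcsk1 over the 12 libraries was Hbs1l (r = 0.98), followed by Lrrtm2 (0.97) and Pstpip2 (0.96). The gene most like Ins1 was Fkbp2, which encodes an immunophilin of the endoplasmic reticulum (r = 0.98), and the gene most like Ins2 was Enho (0.97). For Iapp it was Coprs (0.96) and for Scg5 it was Iapp itself. For Pcsk2, Cpe and Pcsk1n they were Kcnip1 (0.95), Zfp24 (0.95) and Slc25a39 (0.95).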

How the data were processed

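Per library, the authors deposited 2 values per gene, a read count and an FPKM, from reads aligned to mm10. TopHat2, Cufflinks and DESeq are named without versions, per the submitters' processing notes; what counted the reads, with which annotation and strandedness, is not given in the sources used here. Per the labels' protocols, islets were freed with collagenase and purified on a density gradient. Scaling the counts by length and library total returned each of the 257939 nonzero deposited FPKM values (relative tolerance 1e-05), so both units hold 1 measurement.

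Counts were tested with edgeR 4.0.16 (R 4.3.3): filterByExpr (minimum count 10, minimum total 15), TMM, robust quasi-likelihood, 1 mean per group over all 12 libraries, and Benjamini-Hochberg adjustment over 16076 genes with a threshold of 0.05. The common biological coefficient of variation was 0.307. Replicates differed by a chi-square of 26.6 to 101.3 per degree of freedom, so spread between libraries, not depth, set the precision. Within-library FPKM ratios were compared by exact permutation. Scripts were first tested on simulated data. Alternatives were DESeq2 1.42.0, other scalings and filters, limma 3.58.1 on log2 FPKM, offsets corrected for length, a replicate block, and left-out libraries. Under the high fat diet, libraries of the same number deviated together (r = 0.51, 0.41 and 0.34), and these numbers were taken as pairs from the data. In no other contrast did same-numbered libraries do so. Libraries of different numbers reached similar values, 0.52 for HFD WT 2 with STD WT 1 and 0.42 for HFD WT 1 with STD WT 3. Such correlations therefore cannot show that libraries were paired, and fits with the block are given as alternatives only.

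The genes, the lists and the tests were chosen with earlier results of these data known. Named beside the 8 genes were Sirt3, up to 4 members per list and contrast past the threshold, and the gene or genes most like each of the 8; Tph1 was added after its values were seen. Symbols came from the Ensembl ID (54409 of 54532 found) and coordinates from GENCODE M21; Ero1b is listed there as Ero1lb. A member of the enzyme list is not reported here and is left out of that list's counts and medians.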

Additional observations from a re-analysis of the deposited data

How the results depend on the processing

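Over 87 results and 1987 alternative values, 1803 kept their direction and side of the threshold (or, for counts, their size), 109 kept the direction but lost the call, 64 changed sign, 6 gained a call and 5 counts moved. Most sign changes were of log2 fold changes near 0, and the cause was not tested. The rise of Pcsk1 under the high fat diet kept its sign throughout (1.05 to 1.58) and its call in 24 of 25 alternatives; over the mean of both diets it kept its call in all 23.

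Under the standard diet DESeq2 called 1 of the 8 genes and 484 of all tested genes, and the compared groups alone gave 1 and 260. Over the mean DESeq2 called 2 of the 8 and 1748 of all tested genes, against 1 and 1249 by edgeR. Under the high fat diet the compared groups alone gave 0 of the 8 and 543 of all tested genes. In HFD KO against STD KO, calls among the 8 genes numbered 0 to 2 when 1 library was left out. The 2 came without HFD KO 3, where 801 of all tested genes were called, against 7 in the fit of all 12 libraries. Across all genes, DESeq2 called 484 against 275 under the standard and 2033 against 1189 under the high fat diet; the compared groups alone gave 543 under the high fat diet, and 135 under the standard diet with the replicate block. Over fits without 1 library, the high fat count was 519 (without HFD KO 1) to 2899 (without HFD KO 3) and the standard diet count 146 (without STD WT 2) to 296.

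With the 8 genes left out of totals and scaling, Pcsk1n was 0.033 under the standard diet and 0.014 over the mean, and summed insulin 0.028 under the high fat diet. With at least 1 CPM in 6 libraries, Pcsk1n under the standard diet was 0.0025. By limma on log2 FPKM (pseudocounts 1 and 0.1 alike), standard diet values were 0.067 for Ins1, 0.011 for Pcsk2 and 0.14 for Pcsk1n, with 0.034 for Pcsk1n over the mean. With length-corrected offsets, Iapp was -0.18, Pcsk2 0.19, Pcsk1n 0.032 and Scg5 -0.030 under the high fat diet, Pcsk2 0.055 and Pcsk1n 0.021 over the mean, and Pcsk1n 0.011 under the standard diet. With the replicate block added, these were -0.17, 0.18, 0.018 and -0.051 under the high fat diet and 0.042 and 0.0086 over the mean. With the replicate block, Pcsk1n under the standard diet was 0.0015 over all libraries and 0.028 in the compared groups, where it was 0.025 without the block; Pcsk1 under the high fat diet was 1.27 in the blocked pairs, and the block over all libraries ended or added no call among the 8 genes. The labels link libraries of different groups by number alone, under the high fat diet as well.

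Without STD WT 3 and HFD KO 2, Ins1 was 0.10 and Pcsk1n 0.29 under the standard diet, Iapp -0.015, Pcsk2 0.031 and Scg5 -0.013 under the high fat diet, and Pcsk2 0.0060 and Pcsk1n 0.092 over the mean; Scg5:Pcsk2 between diets was -0.011 and Pcsk1:(Ins1+Ins2) between diets 0.023. Between genotypes, Scg5:Pcsk2 was 0.053 as a linear ratio and Pcsk2:(Ins1+Ins2) 0.50, past the threshold, with length correction. With length correction, Pcsk1:(Ins1+Ins2) was 0.072 and Pcsk2:(Ins1+Ins2) 0.071 between diets. In the sign-flip test of same-numbered pairs, which cannot reach the threshold after adjustment, Ins1:Ins2 (0.69), Pcsk1:Pcsk2 (1.16), Pcsk1n:Pcsk1 (-1.08) and Pcsk1:(Ins1+Ins2) (1.37) lost their calls.

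Without 1 library at a time, standard diet ranges were -0.29 to 0.097 for Ins1 and -0.26 to 0.26 for Pcsk1n. High fat ranges were -0.056 to 0.46 for Iapp, -0.20 to 0.012 for Pcsk1n, -0.053 to 0.50 for Scg5 and -0.16 to 0.13 for summed insulin. Over the mean they were -0.17 to 0.092 for Pcsk1n and -0.22 to 0.049 for Scg5, and summed insulin between diets in WT was -0.13 to 0.17. Genotype ratios ranged from -1.23 to -0.95 (Pcsk1n:Pcsk1), -0.19 to 0.13 (Scg5:Pcsk2), 1.29 to 1.52 (Pcsk1:(Ins1+Ins2)) and -0.16 to 0.014 (Cpe:(Ins1+Ins2)). Diet ratios ranged from -0.0090 to 0.12 (Pcsk1:Pcsk2), -0.24 to 0.032 (Pcsk1n:Pcsk1) and -0.19 to 0.064 (Pcsk1:(Ins1+Ins2)).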
